A study of Caenorhabditis elegans with 12 samples.

Results

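The metallothionein genes mtl-1 and mtl-2 of the nematode Caenorhabditis elegans are 2 of the 17118 genes that had a probe set of their own, and were read by 4 of the 22548 probe sets that were not manufacturer's controls. They were all the probe sets whose only gene symbol in the platform annotation was mtl-1 or mtl-2, namely 172744_at for mtl-1 and 188487_s_at, 194150_x_at and 194151_x_at for mtl-2. No probe set with several symbols carried either name. In the manufacturer's naming the ending _s marks probes shared by several transcripts, and _x marks sets in which some probes resemble other sequences. Both genes lie on chromosome V in RefSeq's table for the WBcel235 assembly, from which names and gene order alone were taken.

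Metallothioneins are small proteins rich in cysteine that bind zinc, copper and cadmium through their thiol groups. They hold essential metals and keep toxic ones away from other proteins. In C. elegans mtl-1 is known to be active without metal in the posterior bulb of the pharynx and to be induced by cadmium in the intestine, while mtl-2 is known from the intestine. Transcription of both genes in the intestine is known to need the GATA factor ELT-2, and mtl-1 is also a known target of the FOXO factor DAF-16.

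The 12 arrays held 4 groups of 3. Wild-type N2 (Bristol) worms and worms of the double knockout, labelled MT KO mtl-1,mtl-2(zs1) and given N2 (Bristol) as their strain too, had either never met Cd or met 30 µM Cd from hatching until the L4 larval stage. All were whole L4 larvae grown at 20 °C on Escherichia coli OP50 from synchronous L1 larvae. The sources used here do not say how much of each gene is missing from the knockout, where the probes lie relative to the missing part, or whether arrays of a group came from separate cultures; the p-values therefore measure only the spread between arrays. In RNA from whole animals, fewer cells of a type and less RNA per cell cannot be told apart.

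Values are log2 values made with GCRMA, so that a difference of 1 is a doubling. The median over all arrays and features was 4.03 and serves as a reference for low signal, since no detection calls were used; array medians ran from 3.98 to 4.07. RNA integrity was read as the log2 signal of the GAPDH and actin controls at the 3′ end less that at the 5′ end, which grows as RNA degrades. It averaged 1.98 ± 0.78 (SD, n = 3) for wild type not given Cd and lay between 0.74 and 1.48 on the arrays of the other 3 groups. Every array with Cd lay below every array without Cd. The ranges without and with Cd were 1.28 to 2.81 and 1.03 to 1.22 in wild type. In MT KO they were 1.27 to 1.48 and 0.74 to 1.07. The measure and Cd thus went together, so a fit with it as a covariate cannot fully separate them. Wild type without Cd replicate 1 was highest at 2.81. Within a group, arrays had a Pearson correlation of 0.991 to 0.997 over the probe sets, a description only since genes are no replicates. Except where an exact permutation test is named, tests below are those of 1 limma fit to all 12 arrays and all 22548 probe sets, with Benjamini-Hochberg adjustment over all of them and an adjusted p under 0.05 as the threshold.

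The strain comparison came first because it checks the labels. In wild type without Cd, mtl-2 at 188487_s_at read 11.68, 11.54 and 11.33 in replicates 1 to 3, and in MT KO without Cd it read 3.67, 3.64 and 3.80. Every wild-type array thus stood far above every knockout array. At 194150_x_at the wild-type arrays read 11.81, 11.66 and 11.11 and the knockout arrays 3.86, 3.56 and 4.36. At 194151_x_at the wild-type arrays read 10.26, 9.81 and 9.50 and the knockout arrays 5.78, 4.45 and 4.93. At all 3 probe sets the groups were apart, and wild type without Cd replicate 1 was the highest array of its group. The mtl-1 probe set read 5.10, 4.47 and 4.69 in wild type and 3.73, 3.43 and 3.56 in the knockout, a much narrower gap from a low wild-type level.

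**Figure D1:**
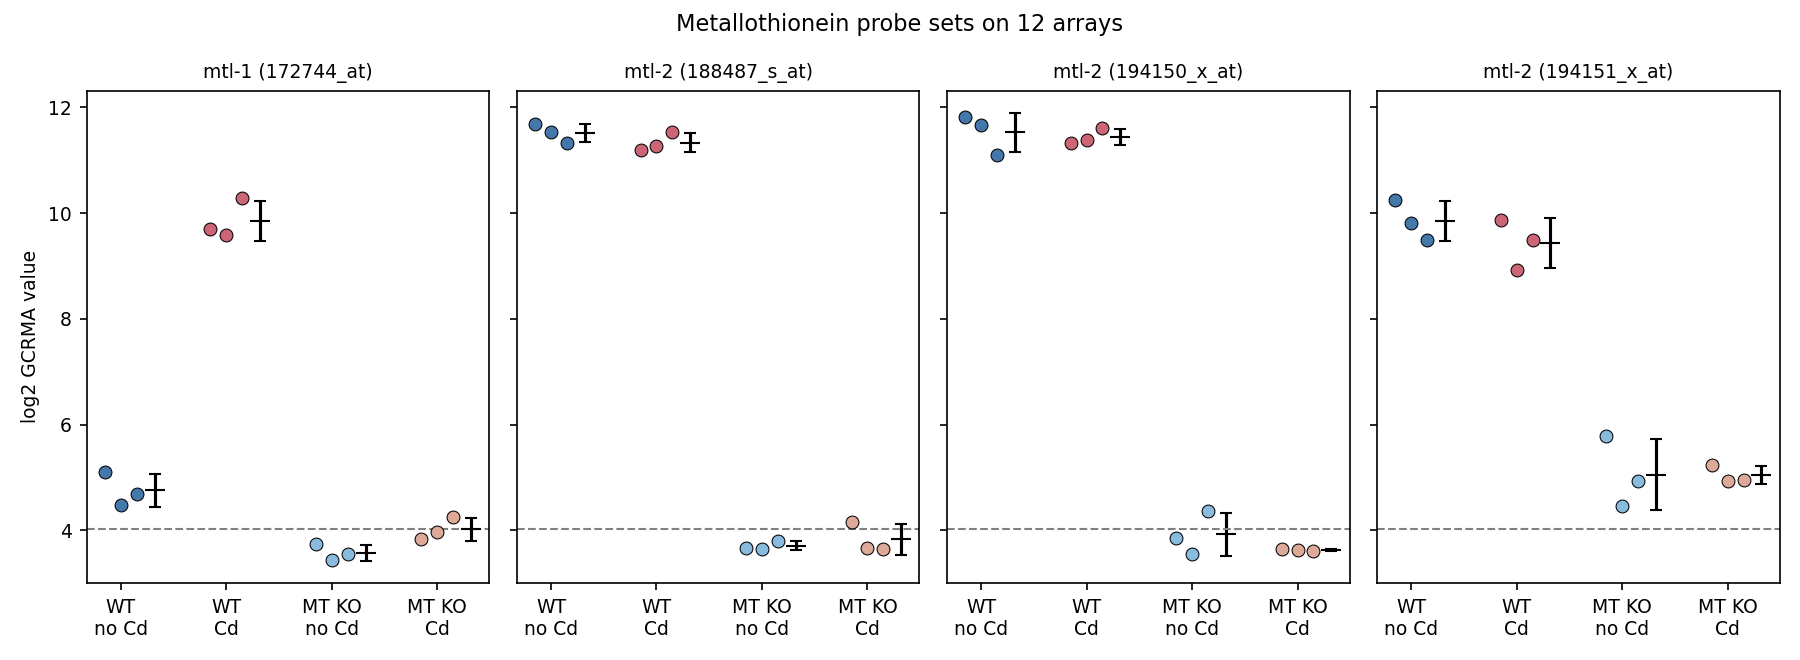
Log2 GCRMA values (vertical axis) of the 4 metallothionein probe sets on the 12 arrays. Points are arrays in replicate order from left to right, bars are the group mean ± SD (n = 3), WT is wild type and the dashed line is the median of all values, 4.03; mtl-2 is high in both wild-type groups and mtl-1 in wild type with Cd alone.

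All 4 probe sets were lower in MT KO than in wild type without Cd, where 1.65% of all probe sets were called and 0.705% were lower. The difference at mtl-2 was −7.81 (SE 0.15, limma adjusted p = 1.72e-08) at 188487_s_at, −7.60 (SE 0.22, limma adjusted p = 3.29e-07) at 194150_x_at and −4.80 (SE 0.35, limma adjusted p = 0.000359) at 194151_x_at. By size these were ranks 1, 2 and 3 of all probe sets. The mtl-1 probe set differed by −1.18 (SE 0.21, limma adjusted p = 0.0291), rank 52. The call of mtl-1 was lost without wild type without Cd replicate 1 or 3 (limma adjusted p = 0.0655 and 0.0528), without MT KO without Cd replicate 2 or 3 (0.098 and 0.0785), when just these 6 arrays were fitted (0.104) and with RNA integrity as a covariate (0.106). Its 6 arrays did not overlap between the strains, which also held for 15.9% of all probe sets.

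With Cd the separation covered both genes. Wild-type arrays with Cd read 11.19, 11.28 and 11.54 at 188487_s_at, against 4.16, 3.66 and 3.65 in MT KO with Cd. At 194150_x_at they read 11.32, 11.38 and 11.60 against 3.64, 3.62 and 3.61, and at 194151_x_at 9.87, 8.93 and 9.50 against 5.23, 4.93 and 4.95. No knockout array came near a wild-type array at any of the 3 mtl-2 probe sets. At mtl-1 the wild-type arrays with Cd read 9.69, 9.58 and 10.28 and the knockout arrays 3.83, 3.96 and 4.26. Here mtl-1, like mtl-2, was high in wild type and low in the knockout. The groups were apart at all 4 probe sets, as they were at 25.9% of all probe sets.

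Again all 4 probe sets were called lower in MT KO, where 8.56% of all probe sets were called and 4.94% were lower, and they held ranks 1 to 4 by size. The largest difference was −7.81 (SE 0.22, limma adjusted p = 2.55e-07) at 194150_x_at, followed by −7.51 (SE 0.15, limma adjusted p = 2.49e-08) at 188487_s_at, −5.84 (SE 0.21, limma adjusted p = 2.15e-06) at mtl-1 and −4.40 (SE 0.35, limma adjusted p = 0.000255) at 194151_x_at. These calls held in every alternative setting run, with mtl-1 between −5.97 and −5.62 when single arrays were left out. The group means of MT KO at mtl-1 and at 188487_s_at and 194150_x_at lay below the median of all values, by 0.01 to 0.45, so the folds that correspond to these differences depend on the background of the array.

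Within each array, the signal left in the knockout can also be placed among all probe sets. In MT KO, mtl-1 stood between percentiles 43.4 and 52.2, 188487_s_at between 45.8 and 51.8, and 194150_x_at between 44.9 and 53.0 of the values on its array. The probe set 194151_x_at stood higher, between percentiles 53.8 and 67.5, and its knockout means of 5.05 and 5.04 exceeded the median of all values by 1.03 and 1.01. In wild type, mtl-2 at 188487_s_at and 194150_x_at had between 241 and 399 probe sets above it on an array, while mtl-1 had 8827 to 10318 above it without Cd and 660 to 1026 with Cd.

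The response to Cd in wild type passed the test at mtl-1 and at no mtl-2 probe set. There mtl-1 rose from 4.75 ± 0.32 to 9.85 ± 0.38 (SD, n = 3), a log2 difference of 5.10 (SE 0.21, 95% interval 4.62 to 5.58, limma adjusted p = 9.76e-07) or 34.3-fold. It was the only one of the 4 probe sets to pass, where 11.9% of all probe sets were called, 6.44% higher and 5.5% lower, and it held rank 6 by size. Its arrays with and without Cd did not overlap, as at 25% of all probe sets. The rise held in every alternative run, between 4.89 and 5.27 with single arrays left out and at 5.29 or below otherwise.

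No mtl-2 probe set passed in wild type, and the intervals bound how large a change this fit could have missed. The log2 difference was −0.18 (95% interval −0.52 to 0.16, limma adjusted p = 0.6) at 188487_s_at, −0.09 (−0.58 to 0.40, limma adjusted p = 0.98) at 194150_x_at and −0.42 (−1.21 to 0.36, limma adjusted p = 0.606) at 194151_x_at. The largest rise inside any of these intervals is thus 0.40 log2 units, a bound for this fit alone. The arrays with and without Cd overlapped at all 3. The sign was not settled at the 194150_x_at and 194151_x_at sets, which gave 0.25 (SE 0.26) and 0.07 (SE 0.43) with RNA integrity as a covariate. The bound of 0.40 does not carry over to that fit. The 194150_x_at set also gave 0.05 without wild type without Cd replicate 1, the array with the poorest RNA integrity.

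The responses of the genes were also set against each other within each wild-type array. The mtl-1 value minus the mean of the mtl-2 probe sets ran from −6.53 to −5.96 without Cd and from −1.10 to −0.59 with Cd. The difference between the conditions was 5.33 (SE 0.23), and the 3 arrays of each condition were wholly apart. An exact two-sided permutation test gave p = 0.1, the smallest that 3 arrays against 3 allow.

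**Figure D2:**
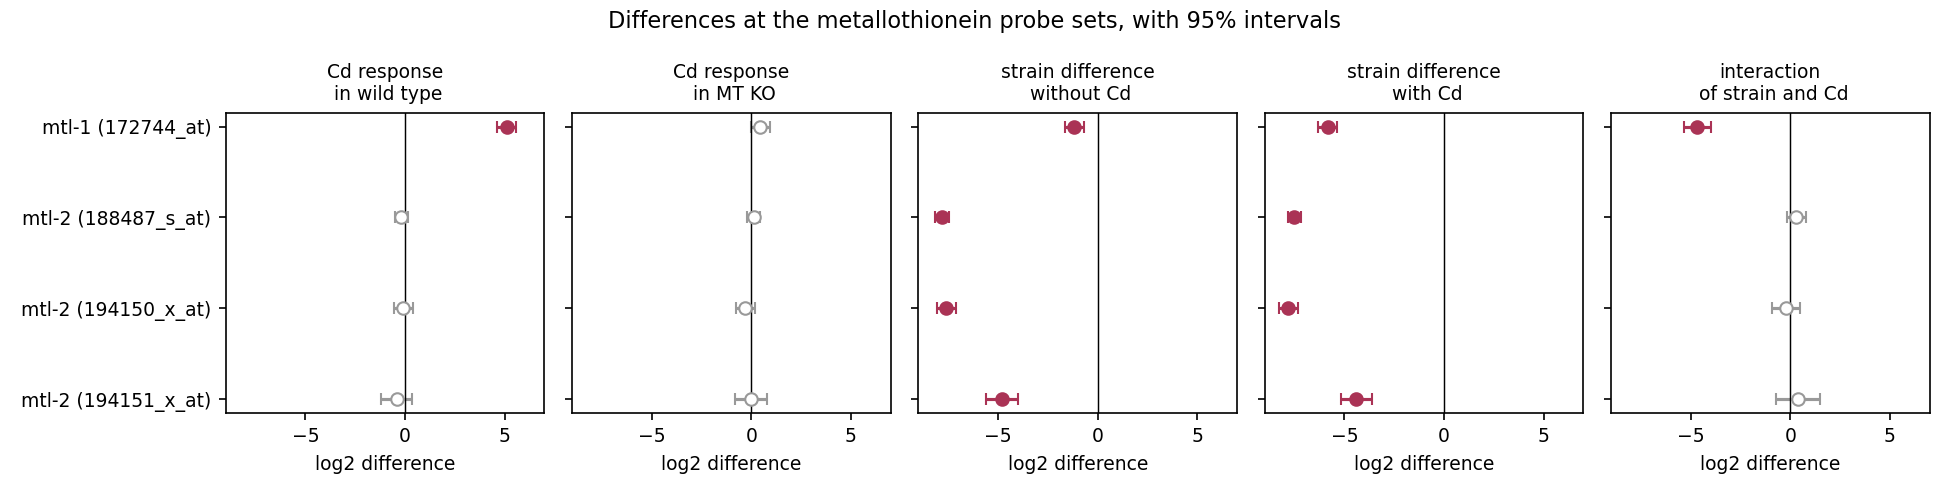
Log2 differences (horizontal axis) at each metallothionein probe set in the 5 comparisons, with 95% intervals of the limma fit. Filled points passed an adjusted p under 0.05; strain differences are MT KO minus wild type, and the interaction is the Cd response in MT KO minus that in wild type.

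In MT KO, Cd changed none of the 4 probe sets by the limma test, where 22.5% of all probe sets were called, 11.5% higher and 11% lower; none had an unadjusted p under 0.05 either. The difference at mtl-1 was 0.44 (95% interval −0.04 to 0.92, limma adjusted p = 0.19). Its 3 arrays with Cd nevertheless lay above the 3 without Cd, which was so, in one direction or the other, at 43.2% of all probe sets. The differences at mtl-2 were 0.12 (−0.22 to 0.46), −0.30 (−0.79 to 0.19) and −0.02 (−0.80 to 0.77) at 188487_s_at, 194150_x_at and 194151_x_at, with limma adjusted p of 0.654, 0.391 and 0.981. Signs moved with single arrays at 188487_s_at, which gave −0.05 without MT KO with Cd replicate 1, and at 194151_x_at, which gave 0.35 without MT KO without Cd replicate 1.

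The difference of the Cd responses themselves was tested as the interaction of strain and Cd. At mtl-1 the response in MT KO was lower than that in wild type by a log2 difference of −4.66 (SE 0.30, 95% interval −5.34 to −3.98, limma adjusted p = 0.000162). This was rank 1 by size of all probe sets, of which 5.45% were called, 3.36% lower and 2.09% higher. The value lay between −4.83 and −4.44 when single arrays were left out. In MT KO, a strain labelled as lacking the gene, the mtl-1 means lay below the median of all values in both conditions, so the interaction restates the wild-type rise of 5.10 and is no separate finding about mtl-1. At mtl-2 the interaction was 0.30 (95% interval −0.18 to 0.78), −0.21 (−0.90 to 0.48) and 0.40 (−0.71 to 1.52), with limma adjusted p of 0.571, 0.821 and 0.778.

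In the order of group means, mtl-1 thus ran from MT KO without Cd (3.57) through MT KO with Cd (4.02) and wild type without Cd (4.75) to wild type with Cd (9.85). The ranges of neighbouring groups did not overlap, although the lowest step missed the limma threshold and the next step, 0.74, was not tested. At all 3 mtl-2 probe sets the order split into a lower pair of knockout groups and an upper pair of wild-type groups. Within each pair the ranges overlapped, so the order inside a pair did not exceed the spread between arrays.

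**Figure D3:**
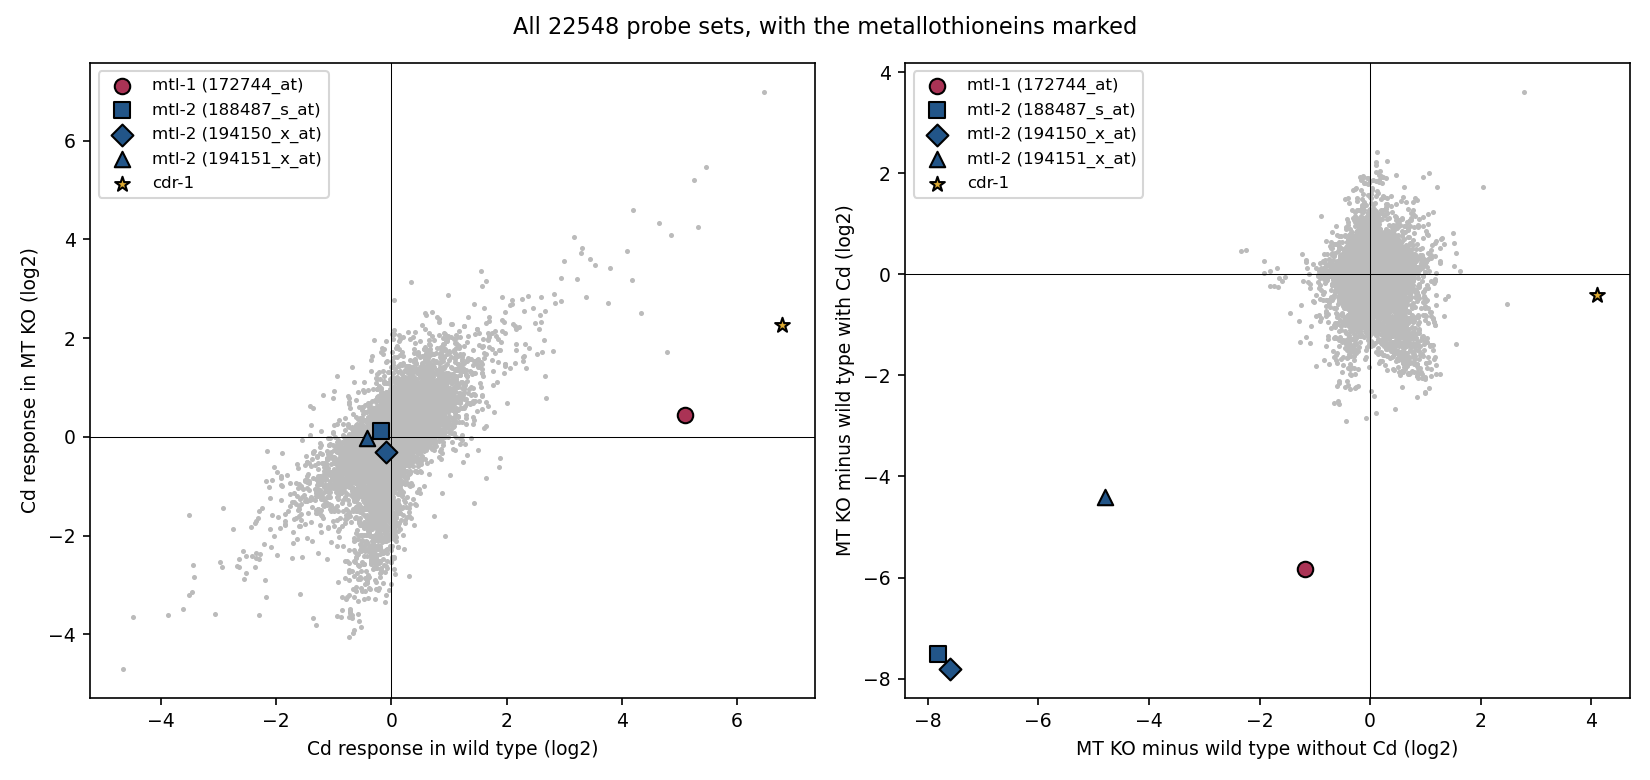
Each grey point is 1 of 22548 probe sets. The left panel sets the log2 Cd response in MT KO (vertical) against that in wild type (horizontal), the right panel the log2 difference MT KO minus wild type with Cd (vertical) against that without Cd (horizontal). In the right panel the mtl-2 symbols lie at the lower left, at −4.80 or below without Cd, and mtl-1 at −1.18 without and −5.84 with Cd.

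The 3 probe sets of mtl-2 did not show the strain difference to the same size. The value of 188487_s_at minus that of 194151_x_at on the same array ran from 1.31 to 2.35 over the 6 wild-type arrays and from −2.11 to −0.81 over the 6 knockout arrays. The value of 194150_x_at minus that of 194151_x_at ran from 1.44 to 2.45 and from −1.92 to −0.56. The strain difference was therefore smaller at 194151_x_at by 3.06 and 3.10 log2 units, with an exact two-sided permutation p of 0.005 each, the smallest that permuting strain within each Cd condition can give, and 0.0075 after adjustment over 3 pairs. No wild-type array overlapped a knockout array in either difference.

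The remaining pair gave similar values on most arrays. The value of 188487_s_at minus that of 194150_x_at ran from −0.13 to 0.22 in wild type and from −0.57 to 0.53 in MT KO. The strain differences at these probe sets differed by −0.04 (exact two-sided permutation p = 0.77, also after adjustment). The spread of this difference was wider in MT KO (SD 0.36, n = 6) than in wild type (SD 0.14, n = 6).

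**Figure D4:**
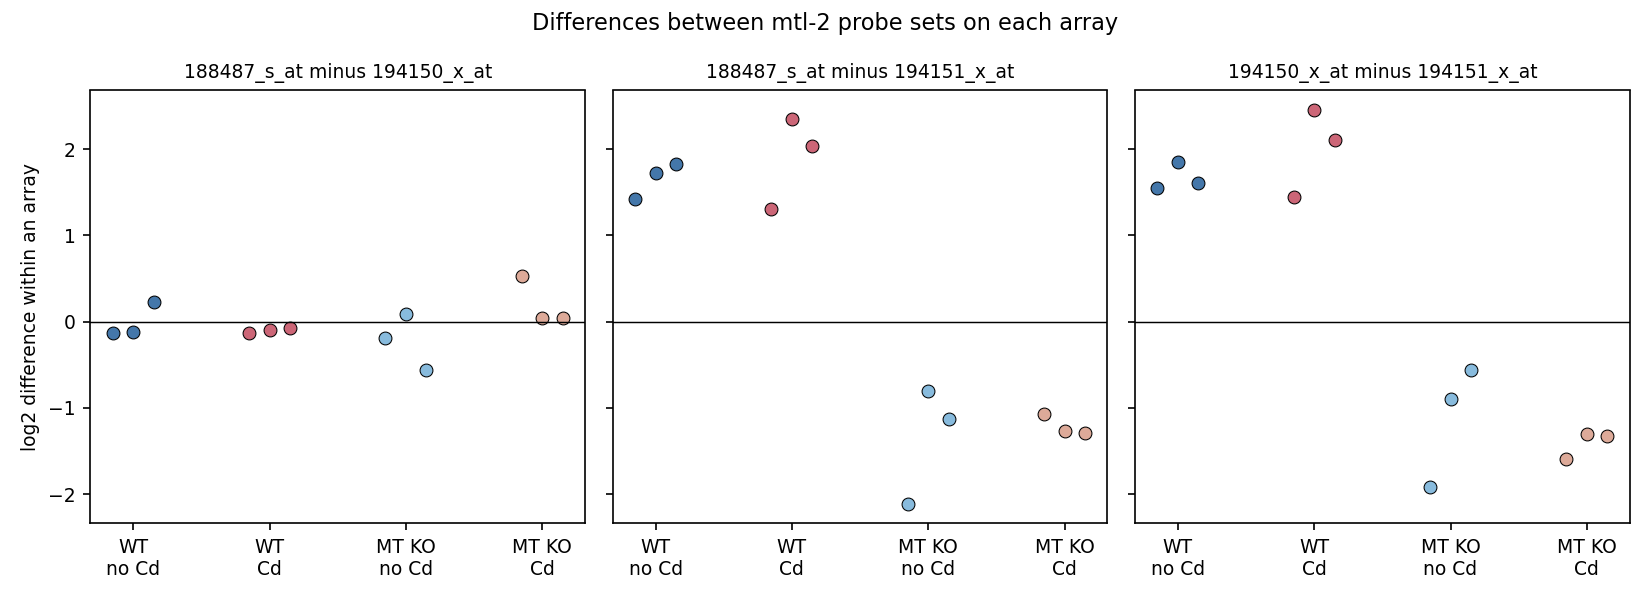
Difference between a pair of mtl-2 probe sets on the same array (vertical axis, log2) in each of the 4 groups; points are arrays, and WT is wild type. The left panel stays near 0 in both strains, while both panels with 194151_x_at run from above 1.3 in wild type to below −0.5 in MT KO.

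The genes with the profile nearest to that of each metallothionein probe set were sought over the 12 arrays. The measure was the root mean square difference, in log2 units, after each probe set had its own mean subtracted. The nearest to mtl-1, whose own root mean square spread was 2.53, were the C-type lectin gene clec-60 at 1.54, Y65B4BR.1 at 1.65 and rol-1, named for a rolling mutant, at 1.66. The first of these, clec-60, rose with Cd by 4.33 (SE 0.16) in wild type and by 2.51 (SE 0.16) in MT KO. Unlike mtl-1, it thus rose in both strains.

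No gene came close to mtl-2. The nearest to 188487_s_at and to 194150_x_at, with own spreads of 3.83 and 3.86, was rol-1 at 3.11 for both, followed by the hedgehog-related gene wrt-6 at 3.12 and 3.11 and the collagen gene col-49 at 3.14 and 3.13. The other mtl-2 probe set of this pair lay at only 0.25. For 194151_x_at, with a spread of 2.34, the nearest were wrt-6 at 1.73, the ribosomal RNA gene rrn-3.56 at 1.75 and rol-1 at 1.78, all farther than the nearest probe set of mtl-2 itself at 1.58.

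Of the 4 protein-coding neighbours of the genes in RefSeq's order, 3 had a probe set of their own. T08G5.1, next to mtl-2, had group means of 2.75 and 7.54 in wild type without and with Cd and of 5.22 and 6.95 in MT KO, a rise with Cd of 4.79 (SE 0.22, limma adjusted p = 1.37e-06) and 1.73 (SE 0.22, limma adjusted p = 0.000338). Without Cd T08G5.1 was higher in MT KO by 2.48 (SE 0.22, limma adjusted p = 0.00121), a call that held in 19 of 19 alternatives. With Cd the strains differed there by −0.59 (SE 0.22, limma adjusted p = 0.151), which did not pass. At K11G9.5, next to mtl-1, MT KO differed from wild type by −0.88 without Cd (SE 0.15, limma adjusted p = 0.0234) and by −0.86 with Cd (SE 0.15, limma adjusted p = 0.00689). The call without Cd held in 13 of 19 alternatives and was lost without wild type replicate 2 or 3 or any MT KO replicate of that condition and when just these 6 arrays were fitted, with limma adjusted p up to 0.108. The chemoreceptor-family gene srh-308 on the other side of mtl-2 read between 2.45 and 2.48 in the other 3 groups and 3.37 in MT KO with Cd, all below the median of all values.

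Other genes of cadmium defence were read beside the metallothioneins. The list held the cdr genes, relatives of glutathione S-transferases, the numr genes, enzymes that make glutathione and phytochelatins, and ABC transporters that export or sequester them, and 14 of its 17 genes had a probe set with a single symbol. In wild type with Cd, 4 rose and 5 fell, where 6.44% and 5.5% of all probe sets did, and in MT KO 6 rose and 1 fell, where 11.5% and 11% did. Of the 9 calls in wild type, 5 remained with RNA integrity as a covariate and 3 in every alternative, and of the 7 in MT KO 4 did. The median log2 difference was −0.10 in wild type and 0.11 in MT KO, against 0.00 and 0.02 over all probe sets. Between the strains, 1 was higher and 2 were lower in MT KO without Cd, where 0.94% and 0.705% of all probe sets were. Of these 3 calls without Cd, 1 held in every alternative. The 2 lower ones were lost when only the arrays compared were fitted. With Cd 1 was higher, where 3.62% were. The interaction was passed by 3 of the 14, 2 of them with a higher Cd response in MT KO. Over all probe sets 5.45% passed it, 2.09% with a higher response. Of the 3 calls, 1 held in every alternative, and neither of the 2 higher ones did.

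The member of that list that moved most was cdr-1, a gene induced by cadmium in the intestine. Its group means were 3.73 ± 0.31 and 10.51 ± 0.16 in wild type without and with Cd, and 7.83 ± 0.06 and 10.10 ± 0.17 in MT KO (SD, n = 3). It was thus raised in the knockout before any Cd, by 4.10 (SE 0.15, limma adjusted p = 2.43e-06), in the same arrays in which mtl-2 was at −4.80 or lower against wild type. The Cd response of cdr-1 was smaller in MT KO by a log2 difference of −4.51 (SE 0.21, limma adjusted p = 7.36e-05). With Cd, the strains differed at cdr-1 by −0.41 (SE 0.15, limma adjusted p = 0.149), which did not pass except without wild type without Cd replicate 3 (0.0396). Its relatives cdr-2 and cdr-4 rose in both strains, cdr-4 by 1.20 (SE 0.14) in wild type and 1.67 (SE 0.14) in MT KO, and neither differed between the strains by the test. The rise of cdr-2 in wild type, 0.67, was lost with RNA integrity as a covariate (limma adjusted p = 0.081).

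Phytochelatin synthase, encoded by pcs-1, makes cadmium-binding peptides from glutathione, and hmt-1 encodes a transporter needed for cadmium tolerance. With Cd pcs-1 rose by 0.55 in wild type and 0.57 in MT KO (limma adjusted p = 0.025 and 0.0113). The log2 differences of hmt-1 were −0.73 and −0.51 (limma adjusted p = 0.00526 and 0.0176). The calls of pcs-1 held in 14 and 19 of 19 alternatives, that in wild type being lost with RNA integrity as a covariate. Those of hmt-1 held in 18 and 16. The strain difference of pcs-1 was 0.42 without Cd and 0.44 with Cd (limma adjusted p = 0.166 and 0.0758), and that of hmt-1 was −0.08 and 0.14 (0.978 and 0.657). None of these strain differences passed, save that of pcs-1 with Cd in 2 of 19 alternatives (limma adjusted p down to 0.0413). The interactions of pcs-1 and hmt-1, 0.02 and 0.22, did not pass either (limma adjusted p = 0.969 and 0.647). The ABC transporter gene pgp-5 fell with Cd in wild type, by a log2 difference of −2.03 (SE 0.25, limma adjusted p = 0.000796). In MT KO its difference was −0.61 (SE 0.25, limma adjusted p = 0.125), and the interaction did not pass (1.42, SE 0.36, limma adjusted p = 0.0532).

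**Figure D5:**
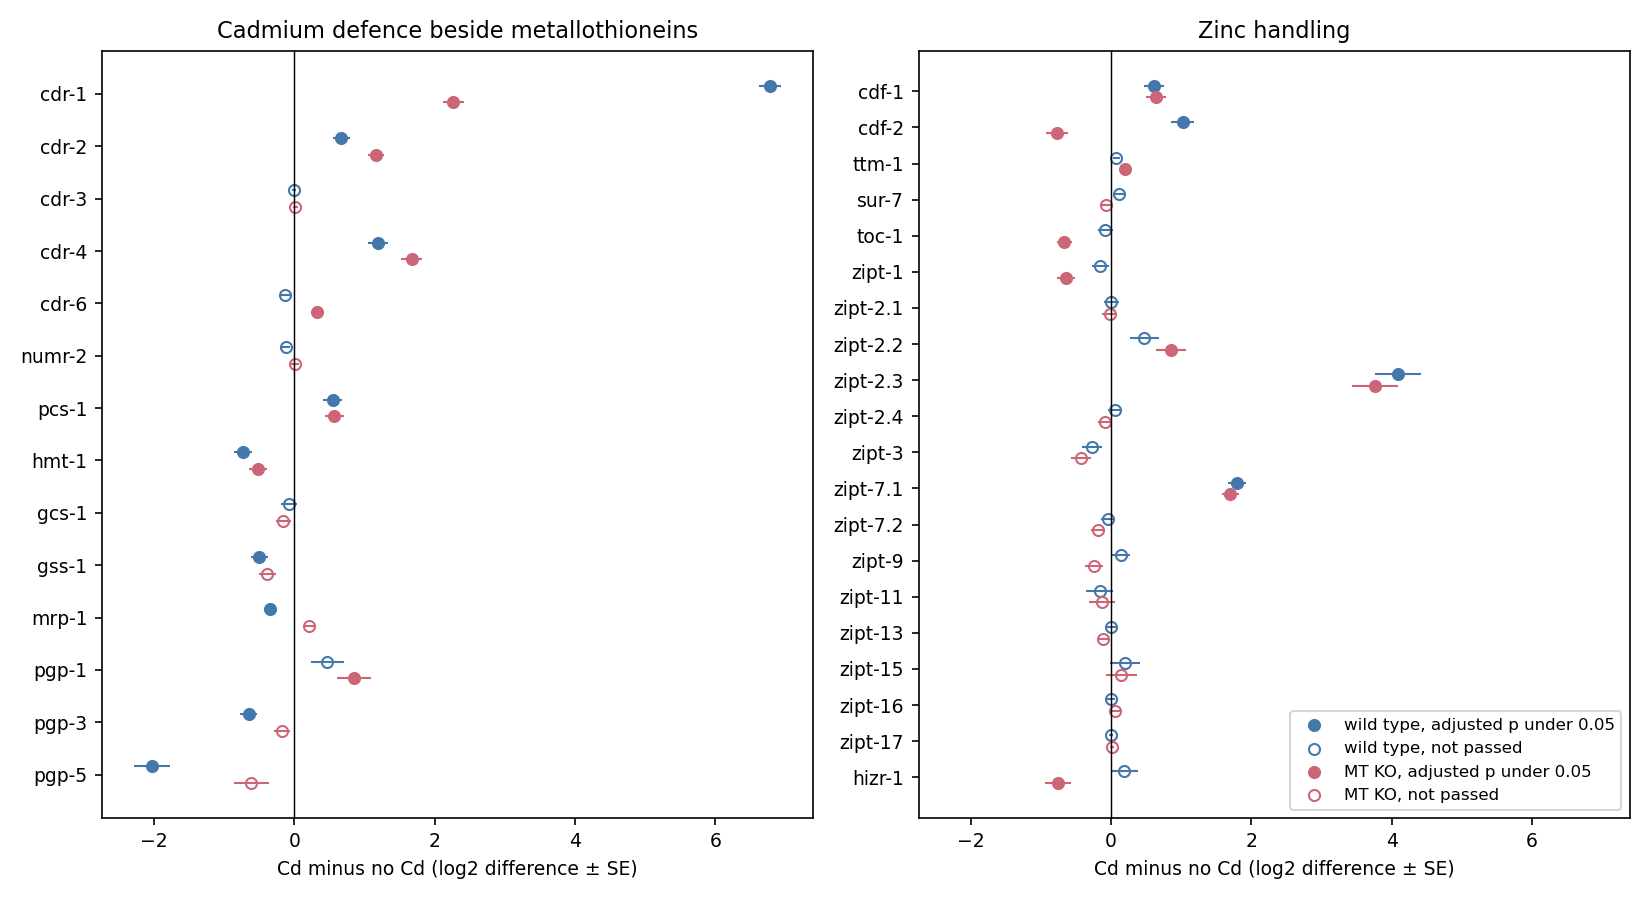
Log2 difference with minus without Cd (horizontal axis, ± SE) for genes of cadmium defence (left) and zinc handling (right), in wild type (blue) and MT KO (red). Filled points passed an adjusted p under 0.05; cdr-1 and cdf-2 lie apart in the strains, while zipt-2.3 and zipt-7.1 lie close together.

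Metallothioneins also bind zinc, so the genes of zinc handling were read as a list of 20, all of them measured. In wild type with Cd 4 rose and none fell, where 11.9% of all probe sets were called, and in MT KO 5 rose and 4 fell, where 22.5% were. The zinc importer-family gene zipt-2.3 rose by 4.09 (SE 0.33) in wild type and 3.76 (SE 0.33) in MT KO, and zipt-7.1 by 1.80 (SE 0.12) and 1.70 (SE 0.12). The list median was 0.07 in wild type and −0.08 in MT KO. Between the strains only cdf-2 was called, without Cd, where 1.65% of all probe sets were.

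The gene cdf-2 encodes the transporter that stores zinc in intestinal granules. Its group means were 5.15 ± 0.09 and 6.17 ± 0.25 in wild type without and with Cd, and 6.34 ± 0.24 and 5.57 ± 0.22 in MT KO (SD, n = 3). It therefore rose with Cd in wild type by 1.02 (SE 0.16, limma adjusted p = 0.00292) and fell in MT KO, by a log2 difference of −0.77 (SE 0.16, limma adjusted p = 0.00658). The interaction was −1.79 (SE 0.23, limma adjusted p = 0.00268). Without Cd it was higher in MT KO by 1.20 (SE 0.16, limma adjusted p = 0.00917), a call lost when just these 6 arrays were fitted (0.068). With Cd the strains differed by −0.60 (limma adjusted p = 0.051), which did not pass but did so in 6 of 19 alternatives, with limma adjusted p down to 0.0178.

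Transcripts of factors known to act on metallothionein or metal-stress genes were read next. Of 9 listed factors 8 were measured. With Cd, 1 rose in wild type, where 6.44% of all probe sets did, and 2 fell in MT KO, where 11% did. None of these calls held in every alternative, and none of the 8 factors differed between the strains. The GATA factor gene elt-2 read 5.29 ± 0.35 and 4.74 ± 0.21 in wild type without and with Cd and 5.15 ± 0.18 and 5.29 ± 0.27 in MT KO (SD, n = 3). Its difference with Cd in wild type was −0.55 (SE 0.20, limma adjusted p = 0.117); it passed in 4 of 19 alternatives, among them without wild type without Cd replicate 1, with limma adjusted p down to 0.0261. The zinc-sensing nuclear receptor gene hizr-1 read 3.16, 3.35, 4.03 and 3.28 in the same order of groups, near or below the median of all values, and its fall with Cd in MT KO (log2 difference −0.76, SE 0.19, limma adjusted p = 0.0176) held in 15 of 19 alternatives. It was lost, among others, without MT KO with Cd replicate 1 or 2, with limma adjusted p up to 0.0742. The strain difference of hizr-1 without Cd, 0.87 (SE 0.19, limma adjusted p = 0.0594), passed in some alternatives (down to 0.0165). That of elt-2 with Cd, 0.55 (SE 0.20, limma adjusted p = 0.145), passed only with the replicate number as a block (0.045).

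Markers of the tissues in which the genes are known to be active were read beside them. Of 10 intestine markers none differed between the strains by the test; with Cd 2 rose and 3 fell in wild type, where 6.44% and 5.5% of all probe sets did, and 1 rose and 4 fell in MT KO, where 11.5% and 11% did. In wild type their mean log2 level per array ran from 9.41 to 9.50 before Cd and from 9.07 to 9.12 under Cd, and in MT KO from 9.51 to 9.55 and from 9.15 to 9.34. Of the 5 calls with Cd in each strain, 3 held in every alternative. With RNA integrity as a covariate 3 remained in wild type and 4 in MT KO. The markers did not move together. The peptide transporter gene pept-1 had the largest difference of the 10, −2.34 in wild type and −2.35 in MT KO, while the gut esterase gene ges-1 rose by 0.83 and 0.71. The list shares elt-2 and elt-7 with that of the factors.

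Pharynx markers separated the groups more. With Cd, 6 of 8 rose in wild-type larvae and 7 in MT KO, where 6.44% and 11.5% of all probe sets did. The list medians were 0.59 and 1.22, against 0.00 and 0.02 over all probe sets. Of the 6 calls in wild type, 1 (tnt-4, a troponin gene) remained with RNA integrity as a covariate and 4 without wild type without Cd replicate 1; the 7 calls in MT KO held in every alternative run. In MT KO with Cd 4 were higher than in wild type with Cd, where 3.62% of all probe sets were. The interaction was called higher at 5 markers, 2 of them in every alternative, where 2.09% of all probe sets were called higher. Their mean level per array ran from 6.76 to 6.89 and from 7.24 to 7.46 in wild type without and with Cd, and from 6.67 to 6.82 and from 7.95 to 8.06 in MT KO. The part of these shifts in the mtl-1 result was not tested.

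Markers of stage moved with the group as well. Of 8 sperm markers, which L4 hermaphrodites are known to express, 7 fell with Cd in MT KO and none passed in wild type, where 11% and 5.5% of all probe sets fell. In the same groups as the metallothioneins, 7 were lower in MT KO than in wild type with Cd, where 4.94% of all probe sets were. Without Cd 2 were higher in MT KO, where 0.94% were. Neither of these 2 calls held in every alternative, and 1 remained with RNA integrity as a covariate. The interaction was called lower at 6 sperm markers, where 3.36% of all probe sets were called lower. Their mean level per array ran from 6.14 to 6.62 and from 5.96 to 6.15 in wild type without and with Cd, and from 6.78 to 7.14 and from 4.47 to 4.79 in MT KO, with spe-9 near 2.4 in all groups. Of 6 oocyte and yolk markers 3 rose and 2 fell with Cd in wild type, where 6.44% and 5.5% of all probe sets did. In MT KO 2 fell, where 11% did. The 2 falls in each strain were at the yolk genes vit-2 and vit-6, and the 3 rises at oocyte genes. The log2 difference of vit-6 was −3.43 (SE 0.25) in wild type and −2.83 (SE 0.25) in MT KO. These calls of vit-6 held in 19 of 19 alternatives. With Cd 3 of the 6 markers were lower in MT KO than in wild type, where 4.94% of all probe sets were. None of these 3 calls held in every alternative. Of the 5 calls in wild type 2 held in every alternative, and none of the 3 rises did. The interaction was called lower at 1 marker of this list, where 3.36% of all probe sets were called lower. That call did not hold in every alternative. The yolk gene vit-5 read 2.3 in all groups. The part of these shifts in the metallothionein values was not tested.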

How the data were processed

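RNA from 12 samples of whole L4 larvae had been labelled with biotin and read on 1-colour arrays, starting from 200 ng of total RNA per the labels' protocols. The deposited values are log2 values with 1 value per probe set and array; per the submitters' processing notes GCRMA made them, with no version named; it models background from probe sequences, equalises arrays and summarises probes. That scale was read off the values, between 1.56 and 14.5. They were used as deposited, with no filter or floor; 77 manufacturer's controls were set aside. Array number limits the precision. The platform annotation gave 1 symbol to 20766 probe sets, several to 887 and none to 895.

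Group means were fitted with limma 3.58.1 in R 4.3.3 (8 residual and 1.38 prior degrees of freedom), two-sided, with Benjamini-Hochberg adjustment over 22548 probe sets. The fit was tested on simulated data. Exact permutation tests served for differences between probe sets. The members and gene lists were chosen with earlier results of these data known. Named were all metallothionein probe sets, the 3 nearest profiles of each, cdr-1, pcs-1, hmt-1, elt-2, hizr-1 and cdf-2, and up to 6 members of a list with the smallest adjusted p; the neighbours T08G5.1, K11G9.5 and srh-308, and spe-9, vit-5, pept-1, ges-1 and tnt-4, were added after their values were seen. A listed gene was read at its brightest probe set by overall mean. Replicate numbers were not taken to pair arrays in the main fit. Of 18 same-numbered pairs of arrays, 5 had deviations from the group means that correlated above 0.1. Same-numbered pairs ran from −0.20 to 0.24 and other pairs from −0.33 to 0.25, which does not settle whether the numbers pair arrays. The alternatives were an intensity trend, quantile normalization, array weights, only the arrays compared, the replicate number as a block, a filter on low values, RNA integrity as a covariate, single arrays left out and the mean of the mtl-2 probe sets.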

Additional observations from a re-analysis of the deposited data

Results flagged for a closer look

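The Cd response differed between the strains, by the interaction test of the limma fit, at 8 of the genes described singly. List members that passed it are counted beside their lists. The interaction, MT KO minus wild type on the log2 scale, was −4.66 at mtl-1 (172744_at), whose MT KO means lay below the median of all values, so that it restates the wild-type rise. It was −4.51 at cdr-1, −1.79 at cdf-2 and −3.06 at T08G5.1. Among the nearest profiles to mtl-1, none of them close, it was −1.82 at clec-60, −1.42 at Y65B4BR.1 and −2.48 at rol-1. At srh-308 it was 0.89, between values that lay below the median of all values. All kept their call in each alternative run except rol-1, whose limma adjusted p was 0.0316 in the fit to all 12 arrays and rose to 0.079 over the alternatives.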

How the results depend on the processing

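The strain differences of the 3 mtl-2 probe sets, the strain difference of mtl-1 with Cd, its rise in wild type and its interaction kept direction and call in every alternative run. The weakest of these was 194151_x_at without Cd, with a limma adjusted p of up to 0.0429. The strain difference of mtl-1 without Cd kept its direction but missed the threshold in a fit of only the arrays compared (−1.18) and with RNA integrity as a covariate (−1.05), and ranged from −1.32 to −1.005 with single arrays left out. Other changes of sign were all in differences that passed no test: 194150_x_at with Cd in wild type (0.012 with array weights, 0.25 with the covariate, −0.30 to 0.051 with single arrays left out), 194151_x_at with Cd in wild type (0.074 with the covariate) and in MT KO (0.059 with array weights, 0.25 with the covariate, −0.32 to 0.35 with single arrays left out), 188487_s_at in MT KO (−0.048 to 0.21) and the interaction of 194150_x_at (−0.40 to 0.0083). The same held for elt-2 in MT KO (−0.026 with the covariate), elt-2 between strains without Cd (−0.32 to 0.033 with single arrays left out), hmt-1 between strains with Cd (−0.0031 to 0.31) and the interaction of pcs-1 (−0.11 to 0.14). The cause was not tested. The difference between the wild-type responses of mtl-1 and mtl-2 ran from 5.17 to 5.46 with single arrays left out, an alternative chosen after seeing the data.

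The number of probe sets called between the strains without Cd, 371, was 593 with array weights, 586 with the filter, 23 with only the arrays compared and 168 to 461 with single arrays left out, lowest without wild type replicate 2 (168) and MT KO replicate 2 (170) of that condition. That with Cd, 1930, ran from 1155 to 2139, lowest without wild type with Cd replicate 1. The interaction count of 1229 was 1869 with array weights, and the count with Cd in wild type, 2693, was 1770 with the covariate. With the replicate number as a block, the rise of mtl-1 in wild type was 5.10 (limma adjusted p = 1.25e-05) and no metallothionein call changed. Whether the numbers pair the arrays was not settled. The interaction draws on all groups, so it has no fit of only the arrays compared. As 1 feature, the mean of the mtl-2 probe sets gave −6.74 and −6.57 between the strains without and with Cd.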
